A study of Mus musculus with 11 samples.

Results

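The comparison described here set 2 arrays of 3T3-L1 cells given t10c12 CLA for 12 h against 2 arrays of 3T3-L1 cells given linoleic acid (LA) for 12 h, which makes 4 of the 11 arrays of the series. They were chosen by their labelled fatty acid and time alone, after quantile normalisation over all 11 arrays. 3T3-L1 is an established line of mouse fibroblasts able to differentiate into adipocytes, and the cultures are labelled preadipocytes. t10c12 CLA is a conjugated isomer of linoleic acid with 1 trans and 1 cis double bond, and LA, whose double bonds are both cis and not conjugated, was the control. All groups shared the cell line and differed in fatty acid and time: LA and CLA for 12 h (2 arrays each), LA and CLA for 8 h (2 arrays each), and LA (1 array) and CLA (2 arrays) for 4 h. The labels give no dose and no vehicle or untreated group, so every difference is between 2 fatty acids. They call the replicates biological without naming separate cultures, so p-values measure the spread between these arrays, which may be technical. The question was which functional classes of transcripts differed between the fatty acids at 12 h, and whether those classes stood apart under another scaling of the arrays.

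Polyunsaturated fatty acids enter preadipocytes, are activated to acyl-CoA and can be stored, oxidised or sensed by nuclear receptors of the PPAR family. t10c12 CLA is known for opposing fat storage in adipocytes, and stress signalling through ATF4 and inflammatory signalling through NF-kB have been described as parts of that response. Preadipocytes also divide, and cyclin D1, E2F factors and the MCM helicase carry them from G1 into S phase, in which DNA is copied.

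At 12 h, 1172 genes were higher and 1149 were lower with CLA than with LA, of 12498 genes measured. Those that were higher included regulators of RNA, chromatin and protein turnover, among them Usp9x, Ipo7, Chd9, Suz12 and Rbm25. The genes that were lower included the replication licensing genes Cdt1 and Mcm5, the serine and one-carbon genes Phgdh and Shmt2, the ERK-responsive genes Phlda1 and Fosl1, and the NF-kB pathway genes Nfkbie, Irak1 and Relb. A gene was called when the adjusted p of limma, fitted over all genes and all 11 arrays, was at or below 0.05. By that rule 18.6% of the genes were called, 9.38% higher and 9.19% lower. The arrays of the 2 fatty acids did not overlap for any of the 2321 called genes, nor for 62.6% of all genes, 20.3% with CLA higher and 42.3% with CLA lower. Called differences had a median of 0.74 on the log2 scale in the higher direction and −0.50 in the lower, and 356 of the higher and 60 of the lower genes differed by 1 or more. In cultures measured in bulk, fewer cells of a kind and less RNA per cell cannot be told apart.

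The balance of directions moved with the scaling and with single arrays. When each array was scaled to a common median instead, 947 genes were called higher (7.58%) and 358 lower (2.87%), 10.4% in all, so the share of calls in the higher direction was 72.6% against 50.5%. In the values as deposited, with no scaling between arrays, 1914 genes were called higher and 10 lower. The median log2 difference over all genes was −0.15 after quantile normalisation, −0.17 after median scaling and 0.28 as deposited, and the counts and medians of the classes below are to be read against those of all genes. Called in the same direction under both scalings were 867 higher genes (6.94%) and 349 lower genes (2.79%), 9.73% in all. The count of 2321 fell to 705 without LA replicate 2 (617 higher and 88 lower), to 1028 without LA replicate 1 (739 and 289) and to 999 without CLA replicate 1 (691 and 308), and was 2150 without CLA replicate 2 (1053 and 1097). The near-equal numbers of higher and lower genes thus rested on single arrays of 12 h. Earlier arrays, which enter the estimate of the spread, moved the lower count too, to 646 and 656 without LA replicate 1 or 2 of 8 h, to 745 and 736 without CLA replicate 1 or 2 of 4 h and to 1865 and 1845 without CLA replicate 1 or 2 of 8 h. With the log2 median of each array as a covariate the count of called genes was 157, of which 153 were higher, and 1 of the 75 classes described below kept any lower call. At 12 h the array medians of the 2 fatty acids did not overlap, so this covariate is partly confounded with fatty acid. In calls lost with the covariate, here and in the classes below, array brightness and fatty acid cannot be told apart.

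Properties of the arrays moved with fatty acid at 12 h. Deposited medians were 11.6 and 10.6 on the LA arrays, the lowest of the series, against 14.7 and 15.8 on the CLA arrays and 12.8 to 20.1 on the 7 earlier arrays. The GAPDH 3' to 5' ratio, a sign of RNA integrity, was 0.983 and 1.18 with LA and 0.884 and 0.954 with CLA, and the actin ratio was 1.55 and 1.59 with LA and 1.49 and 1.31 with CLA. The signal of the spiked Cre control was 7421 and 7387 with LA and 6548 and 6271 with CLA. On the leading principal component, with 35.0% of the variance, the LA arrays lay at 49.5 and 49.7 and the CLA arrays at 4.69 and 17.0. Array brightness entered a fit only as the covariate above, and the part of RNA integrity and hybridisation in the differences was not tested. Replicates correlated across genes at r = 0.969 with LA and 0.971 with CLA. Of 12 preadipocyte and fibroblast markers on the array, 11 lay above background on all 4 arrays and Cd34 lay at background, and their summed intensity was 47280 and 47290 with LA and 46319 and 46533 with CLA. Adipocyte markers were above background for 3 of 7 genes, with sums of 336 to 409, macrophage markers for 4 of 9, skeletal muscle markers for 2 of 7, osteoblast and chondrocyte markers for 2 of 5, and endothelial markers for 0 of 7. The adipocyte marker Lep, the macrophage marker Tyrobp and the endothelial marker Pecam1 stood at 0 on all 4 arrays. Other markers did not. The adipocyte marker Plin4 stood at 175 and 188 with LA and 117 and 145 with CLA (log2 difference −0.48, limma adjusted p = 0.0324). The macrophage marker Cd14 stood at 451 and 410 with LA and 328 and 330 with CLA (−0.39, limma adjusted p = 0.0435). Csf1r reached 426 on 1 CLA array and was not called.

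The 12 largest called increases among genes of at least median brightness whose arrays were apart under both scalings were Hook3, Pcmtd1, Rapgef6, Usp9x, Eea1, Cops2, Igf1, Samd9l, Ipo7, Lin7c, Oip5os1 and Chd9. Usp9x, a deubiquitinase, had normalised intensities of 174 and 134 with LA and 714 and 513 with CLA, a 3.92-fold difference (log2 difference 1.97 ± 0.22, adjusted p = 6.76e-04). All 6 other probe sets for Usp9x were higher with CLA as well, by 1.03 to 2.37. Ipo7, an import receptor of the nuclear pore, stood at 355 and 298 with LA and 1205 and 905 with CLA (1.68 ± 0.18, adjusted p = 6.60e-04). Hook3, which links cargo to the dynein motor, stood at 94.0 and 65.2 with LA and 575 and 313 with CLA (2.41 ± 0.30, adjusted p = 9.24e-04), the largest difference of the 12 and one in which the 2 CLA arrays were far apart. Oip5os1, a long noncoding RNA also known as Cyrano, stood at 179.7 and 177 with LA and 659 and 481 with CLA (1.65 ± 0.18, adjusted p = 6.69e-04). Rapgef6, an activator of RAP GTPases, stood at 35.6 and 65.5 with LA and 212 and 197 with CLA (2.04 ± 0.25, adjusted p = 8.81e-04).

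The 12 largest called decreases under the same conditions were smaller, between −0.83 for Wdr45 and −0.99 for Plscr3 on the log2 scale. They were Plscr3, Cotl1, Tsc22d4, Polr2a, Eid2, Phlda1, Traf4, Aar2, Fbln7, Irak1, Pkdcc and Wdr45. Tsc22d4, a member of the TSC22 family of leucine zipper proteins, stood at 1097 and 1229.6 with LA and 558 and 629 with CLA (log2 difference −0.97 ± 0.10, adjusted p = 6.38e-04). Cotl1, which binds filamentous actin, stood at 446 and 502 with LA and 209 and 272 with CLA (−0.98 ± 0.14, adjusted p = 0.00136), and its 5 other probe sets were lower with CLA as well. Polr2a, the largest subunit of RNA polymerase II, stood at 445 and 587 with LA and 277 and 262 with CLA (−0.92 ± 0.22, adjusted p = 0.0164). By the conditions of the list, both CLA arrays lay below both LA arrays for all 12 genes. Of these, Plscr3, Tsc22d4, Traf4 and Wdr45 were not called in the authors' deposited table of 12 h ratios.

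**Figure D1:**
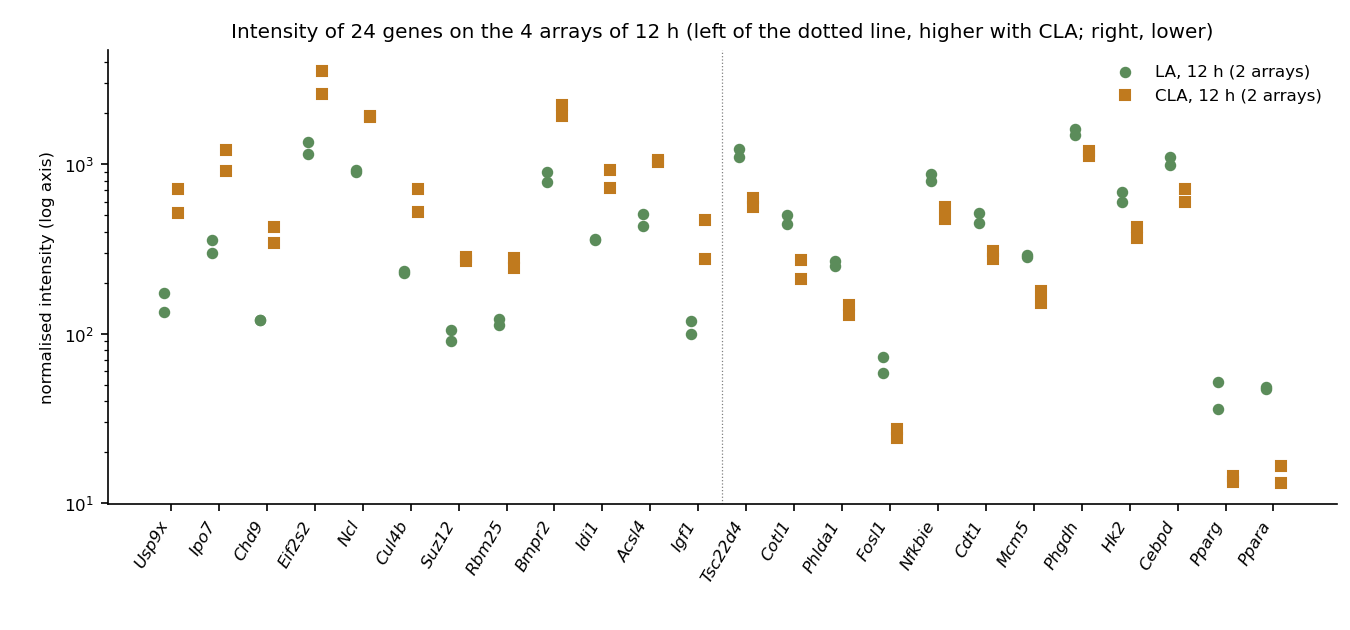
Normalised intensity (log axis) of 24 genes on the 4 arrays of 12 h, 1 point per array, circles for LA and squares for CLA. Left of the dotted line both CLA arrays lie above both LA arrays, as for Usp9x, and right of it both lie below, as for Cdt1 and Mcm5.

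The position of the 12 h arrays against the 7 arrays of 4 and 8 h differed between the fatty acids. Of the 1172 genes called higher with CLA, 1053 (89.8%) had both LA arrays below every earlier array, whereas 45 (3.84%) had both CLA arrays above every earlier array. Of the 1149 genes called lower, 870 (75.7%) had both LA arrays above every earlier array and 151 (13.1%) had both CLA arrays below. Among all genes the LA arrays lay below the earlier range in 15.4% and above it in 30.1%, and the CLA arrays lay below it in 6.90% and above it in 7.59%. For most called genes it was thus the LA arrays of 12 h that lay outside the earlier range, which spans arrays of both fatty acids.

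**Figure D2:**
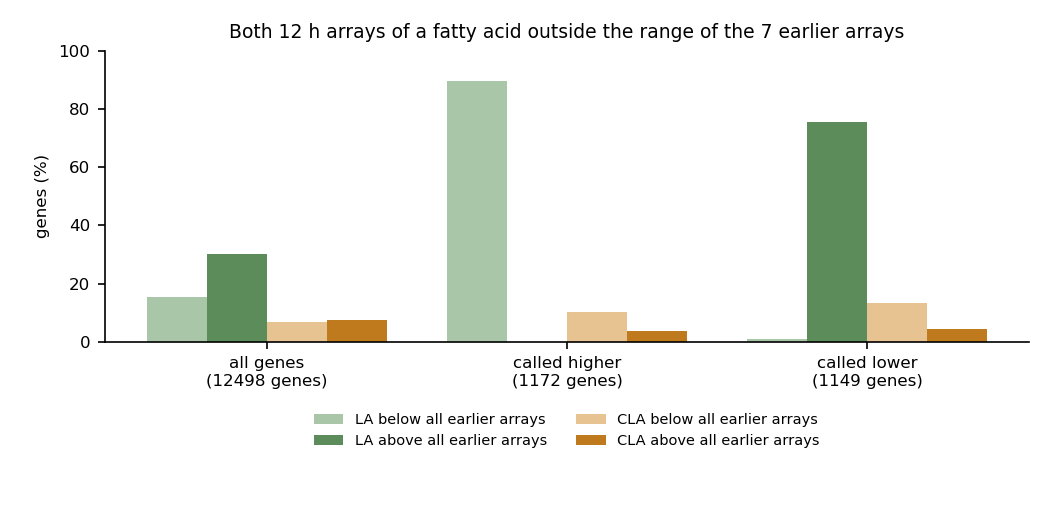
Percent of genes in which both 12 h arrays of a fatty acid lay below (light) or above (dark) all 7 earlier arrays, for all genes and for genes called higher or lower with CLA. The tallest bars are LA below the earlier arrays among genes called higher (89.8%) and LA above them among genes called lower (75.7%).

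The genes were then grouped into 75 functional classes that hold 3307 of the measured and 745 of the called genes. Grouped into broad themes, the genes of RNA processing were called higher in 61 of 293 and lower in 24, chromatin genes in 25 and 7 of 135, protein turnover genes in 39 and 24 of 251 and protein folding genes in 17 and 4 of 101. Calls ran the other way for the cell cycle (8 higher and 21 lower of 153), mitochondria (10 and 27 of 161), intermediary metabolism (7 and 17 of 93), stress responses (16 and 29 of 176) and inflammation (14 and 27 of 199). Of the 21 lower calls of the cell cycle 11 fell in its replication class. Translation (27 and 40 of 259), signalling (32 and 33 of 329), lipid metabolism (21 and 17 of 209) and the cytoskeleton (21 and 20 of 205) held calls in both directions. Under median scaling RNA processing had 54 higher and 11 lower, chromatin 22 and 2, the cell cycle 9 and 10, mitochondria 5 and 11, stress responses 8 and 13, and inflammation 5 and 10. Against 947 higher and 358 lower calls over all genes, the last 4 themes had a larger share of lower calls than all genes under both scalings.

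**Figure D3:**
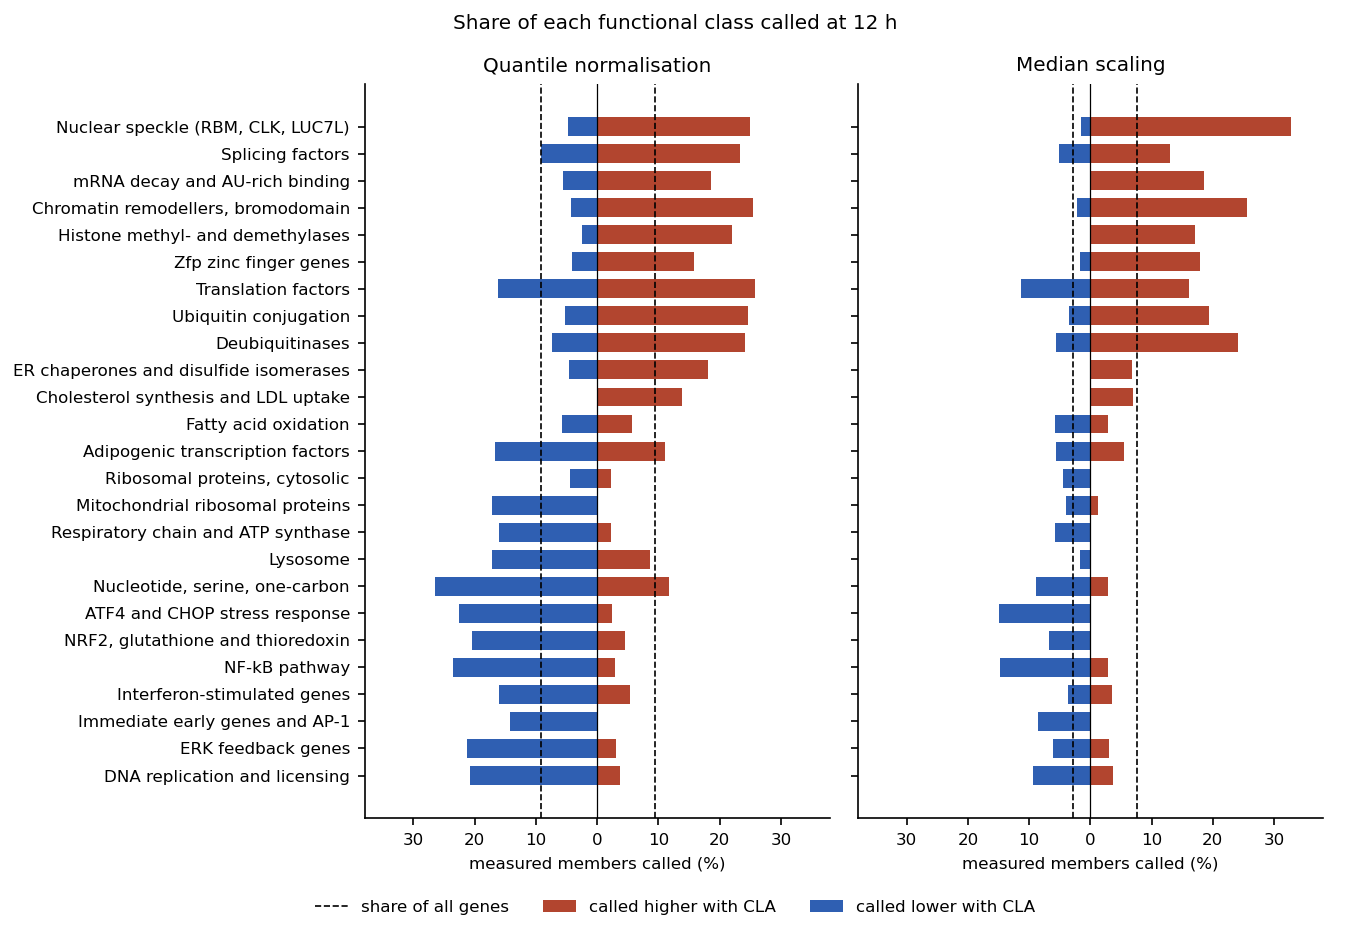
Percent of the measured members of 25 functional classes called higher (right of 0) or lower (left of 0) with CLA at 12 h, under quantile normalisation and under median scaling. Dashed lines mark the shares over all genes, 9.38% higher and 9.19% lower on the left panel and 7.58% and 2.87% on the right. The line for higher calls is passed on both panels by the speckle, splicing, mRNA decay, chromatin remodeller, histone methylase and zinc finger classes. The translation factor, ubiquitin conjugation and deubiquitinase classes pass it on both panels as well.

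Calls among genes of RNA processing were mostly in the higher direction. Nuclear speckles are bodies in which splicing factors gather. The class called speckle genes here holds the RBM, CLK and LUC7L families and others. It was listed by symbol and textbook knowledge, and not every member need lie in speckles. Of its 64 measured genes 16 were higher and 3 lower, with a median log2 difference of 0.19 against −0.15 over all genes. Median scaling gave 21 higher and 1 lower, and a median of 0.19. The 16 higher calls became 6 without LA replicate 2 or CLA replicate 1, 8 without LA replicate 1, 26 without either CLA array of 8 h and 0 with the covariate. Rbm25, a splicing regulator, stood at 112 and 122 with LA and 278 and 245 with CLA (log2 difference 1.15 ± 0.17, adjusted p = 0.00192), and its 3 other probe sets were higher with CLA as well. Rbm27 stood at 137 and 137 with LA and 247 and 300.2 with CLA (0.98 ± 0.14, adjusted p = 0.00144), and Zranb2 at 276 and 267 with LA and 631 and 583 with CLA (1.15 ± 0.22, adjusted p = 0.00567). In all 3 the CLA arrays were close to or above 2 times the LA arrays. Bclaf1, a nuclear RNA-binding protein, was 2.78-fold higher (1.48 ± 0.24, adjusted p = 0.00252), and 1 of its 4 other probe sets lay at −1.01.

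Of 77 core splicing factors 18 were higher and 7 lower, and median scaling left 10 higher and 4 lower. Ptbp3, a polypyrimidine tract binding protein, stood at 286 and 283 with LA and 732 and 658 with CLA (1.28 ± 0.12, adjusted p = 6.38e-04). Srsf10 was higher by 1.23 ± 0.17 and Hnrnph2 by 0.71 ± 0.11, while Sf3b2, a subunit of the U2 complex, was lower by 0.60 ± 0.09. Prpf4b, a kinase of splicing proteins that counts in both classes, was higher by 0.87 ± 0.14. Of 54 genes of mRNA decay 10 were higher and 3 lower, and median scaling gave 10 and 0. Cnot6, a deadenylase of the CCR4-NOT complex, stood at 518 and 517 with LA and 1105 and 1032 with CLA (1.04 ± 0.10, adjusted p = 6.38e-04), and Smg1, a kinase of nonsense-mediated decay, was higher by 1.13 ± 0.17.

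Nuclear pore and export genes were called higher in 10 of 55 and lower in 7 (7 and 2 under median scaling), the higher ones including the transport receptors Ipo7, Kpna3 (2.11-fold) and Xpo1 (2.06-fold) and the pore protein Ranbp2 (2.93-fold). DEAD and DEAH box helicases were higher in 8 of 49 and lower in 4, with Dhx9 at 785 and 756 with LA and 1196 and 1304 with CLA (0.70 ± 0.09, adjusted p = 0.00124). Ddx3x was higher by 0.64 ± 0.09 (adjusted p = 0.00134), and its difference of 0.41 under median scaling was not called.

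Chromatin remodellers and bromodomain genes were higher in 12 of 47 and lower in 2, and median scaling gave 12 and 1. The 12 became 5, 6 and 7 without LA replicate 2, CLA replicate 1 or LA replicate 1, and 2 with the covariate. Chd9, a chromodomain helicase, stood at 121 and 120.3 with LA and 424 and 341 with CLA (log2 difference 1.64 ± 0.19, adjusted p = 7.02e-04), and its 1 other probe set lay at −0.35. Smarca5, the motor of ISWI remodelling complexes, stood at 602 and 592 with LA and 1342 and 1153 with CLA (1.06 ± 0.13, adjusted p = 9.13e-04). Smarcad1 was 2.65-fold higher and Pbrm1, a subunit of a SWI/SNF complex, 2.53-fold higher. Histone methylases and demethylases were higher in 9 of 41 and lower in 1 (7 and 0 under median scaling). Suz12, a core subunit of Polycomb complex PRC2, stood at 90.5 and 105 with LA and 282 and 269.7 with CLA (1.49 ± 0.18, adjusted p = 8.60e-04), with both CLA arrays far above both LA arrays and 4 other probe sets higher as well. Kdm7a, a dim gene, was higher by 2.32 ± 0.30 and Setd2, which places the H3K36 trimethyl mark, by 0.88 ± 0.22. Acetylases, deacetylases and corepressors had 4 higher and 2 lower of 33, with Nrip1, a corepressor of nuclear receptors, at 153 and 138 with LA and 271 and 248 with CLA (0.83 ± 0.13, adjusted p = 0.00234) and the deacetylase Sirt1 higher by 0.74 ± 0.19. Histone genes had 0 higher and 2 lower of 14.

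The Zfp zinc finger genes, most of which encode DNA-binding proteins, formed the largest class, with 46 of 291 measured members higher and 12 lower and a median of 0.11 (52, 5 and 0.14 under median scaling). The 46 became 23 without LA replicate 2 or CLA replicate 1, 25 without LA replicate 1 and 2 with the covariate. Zfp449 stood at 46.7 and 45.7 with LA and 132 and 118 with CLA (1.40 ± 0.16, adjusted p = 7.27e-04), Zfp871 at 259 and 288 with LA and 667 and 532 with CLA (1.12 ± 0.16, adjusted p = 0.00163) and Zfp120 at 23.2 and 20.9 with LA and 72.0 and 54.9 with CLA (1.44 ± 0.22, adjusted p = 0.00206). In all 3 both CLA arrays lay above both LA arrays, as for every gene called higher. RNA polymerase II, Mediator and general factors held 10 higher and 9 lower of 88. Aff4, the scaffold of the super elongation complex, stood at 927 and 911 with LA and 1811 and 1802 with CLA (0.97 ± 0.09, adjusted p = 6.38e-04), Med13 was 2.91-fold and Taf1 1.93-fold higher, and Polr2a was lower as given above. Of 18 clock genes 3 were higher and 3 lower, among them Clock at 123 and 115 with LA and 325 and 296 with CLA (1.37 ± 0.20, adjusted p = 0.00151).

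Class levels, the mean log2 value of the measured members minus that of all genes, were also compared array by array. The 2 fatty acids did not overlap at 12 h in 53 of the 75 classes, with CLA higher in 29 and lower in 24, and 16 and 21 of these kept their direction without overlap under median scaling. Single genes did not overlap in 62.6% of all cases, 20.3% with CLA higher and 42.3% lower. The number of classes apart therefore does not by itself mark the classes out. In 16 of the 29 both LA arrays lay below all 7 earlier arrays, and in 12 of the 24 both lay above. The speckle genes had levels of 0.82 to 0.83 with LA and 1.16 to 1.30 with CLA, against 1.16 to 1.57 on the earlier arrays. The zinc finger genes had −1.18 to −1.14 with LA and −0.87 to −0.84 with CLA, against −0.94 to −0.63 earlier. In these classes the CLA arrays lay within the range of the earlier arrays. For the ATF4 class both fatty acids lay above the earlier range of 0.69 to 1.26, at 1.54 to 1.61 with LA and 1.37 to 1.43 with CLA. The ERK class had 0.68 to 0.69 with LA and 0.39 to 0.51 with CLA, against 0.27 to 0.61 earlier.

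**Figure D4:**
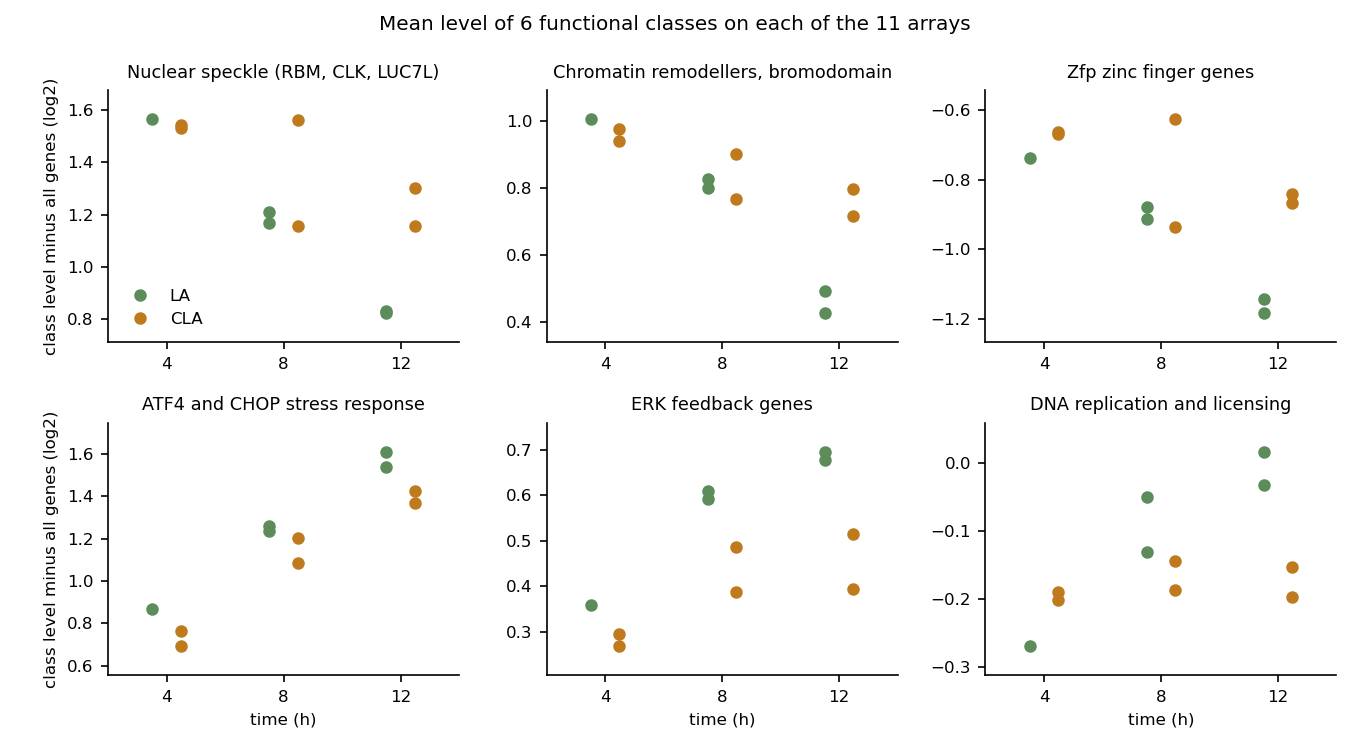
Level of 6 functional classes on each of the 11 arrays, as the mean log2 value of the class minus the mean of all genes, against time (LA and CLA drawn side by side at each time). At 12 h both LA arrays lie below all earlier arrays for the speckle, chromatin remodeller and zinc finger classes and above them for the ATF4, ERK and replication classes.

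Translation genes held calls in both directions. Initiation and elongation factors were higher in 16 of 62 and lower in 10 (10 and 7 under median scaling). Eif2s2, the beta subunit of the initiation factor eIF2, stood at 1347 and 1149 with LA and 3543 and 2589.8 with CLA (log2 difference 1.28 ± 0.20, adjusted p = 0.00206), with its 5 other probe sets higher as well. Eif3a was higher by 0.99 ± 0.14, Eif5 by 0.74 ± 0.11 and Abce1, which recycles ribosomes, by 1.14 ± 0.18. Ribosome biogenesis genes were higher in 9 of 58 and lower in 12. Ncl, which encodes nucleolin, stood at 899 and 929.9 with LA and 1896 and 1916 with CLA (1.06 ± 0.09, adjusted p = 6.38e-04), and Npm1, which encodes nucleophosmin, at 1831 and 1374 with LA and 4003 and 2912 with CLA (1.10 ± 0.19, adjusted p = 0.00398), both about 2 times as high with CLA. Nop56, a core protein of box C/D particles, stood at 1110.02 and 1173 with LA and 850.2 and 794 with CLA (−0.47 ± 0.09, adjusted p = 0.00610), and Mybbp1a was lower by 0.43 ± 0.09.

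Cytosolic ribosomal protein genes, which are bright, had 1 higher and 2 lower of 45, a median of −0.02 after quantile normalisation and −0.39 after median scaling. Rps6 was lower by 0.54 ± 0.11 and Rpl8 by 0.19 ± 0.05, the latter not called under median scaling. Mitochondrial ribosomal proteins were lower in 13 of 76 with none higher, and median scaling gave 3 lower and 1 higher. Mrpl44 stood at 480.4 and 543 with LA and 308 and 365 with CLA (−0.60 ± 0.13, adjusted p = 0.00987), and Mrpl2 and Mrpl15 were lower by 0.46 ± 0.10 and 0.43 ± 0.10.

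Ubiquitin conjugation and removal genes were among the classes with the largest share of higher calls. Of 57 conjugation genes 14 were higher and 3 lower (11 and 2 under median scaling), and of 54 deubiquitinases 13 were higher and 4 lower (13 and 3). Cul4b, a scaffold of cullin RING ligases, stood at 227 and 233 with LA and 710.2 and 519 with CLA (log2 difference 1.39 ± 0.15, adjusted p = 6.60e-04). Cul3 stood at 419 and 388 with LA and 814 and 750.01 with CLA (0.95 ± 0.11, adjusted p = 7.63e-04), and Wwp1, a HECT ligase, at 56.8 and 56.3 with LA and 189 and 142 with CLA (1.5 ± 0.19, adjusted p = 9.95e-04). Besides Usp9x, the deubiquitinases Usp34 and Usp15 were 2.17-fold and 1.99-fold higher. Proteasome subunits had 4 higher and 4 lower of 46, with the activator Psme4 higher by 0.70 ± 0.10 and the ATPase subunit Psmc3 lower by 0.29 ± 0.07. Autophagy genes had 3 higher and 3 lower of 36. Lysosomal genes had 5 higher and 10 lower of 58, and 0 and 1 under median scaling, with Lamp2, a lysosomal membrane protein, at 2739 and 2864 with LA and 3903 and 3849.5 with CLA (0.47 ± 0.05, adjusted p = 7.63e-04) and Gaa, the acid alpha-glucosidase, lower by 0.40 ± 0.09.

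Secretory pathway and protein folding classes held more higher than lower calls, with fewer calls under median scaling. Over all genes 9.38% were called higher and 9.19% lower, and 7.58% and 2.87% under median scaling. ER chaperones and disulfide isomerases had 8 higher (18.2%) and 2 lower (4.55%) of 44. Median scaling gave 3 and 0, a smaller share of higher calls than over all genes. Pdia3, a disulfide isomerase of glycoprotein folding, stood at 3147 and 2871 with LA and 4443 and 4625 with CLA (log2 difference 0.59 ± 0.06, adjusted p = 6.60e-04), Canx, the chaperone calnexin, was higher by 0.38 ± 0.06 and Hsp90b1 by 0.62 ± 0.10, and none of the 3 was called under median scaling. Edem3, which trims mannose in ER-associated degradation, was called higher under both, at 403 and 407 with LA and 894 and 858 with CLA (1.11 ± 0.12, adjusted p = 6.60e-04), while its 1 other probe set lay at −0.58. The 1 other probe set of Pdia3 lay at −0.30. Hspa5, the main ER chaperone, stood at 5238 and 6012 with LA and 5697 and 6202 with CLA (0.08 ± 0.07, adjusted p = 0.401) and was not called. Translocation and glycosylation genes had 7 higher and 2 lower of 46 (4 and 0 under median scaling), with Magt1 1.96-fold higher, and TRiC and prefoldin genes 3 and 0 of 14 (1 and 0). Golgi trafficking genes had 9 and 7 of 63 (14.3% and 11.1%) and RAB GTPases 8 and 5 of 49 (16.3% and 10.2%). In these 2 classes both directions exceeded the shares over all genes. Median scaling gave the Golgi class 5 and 4 and the RAB class 3 and 2. Heat shock proteins had 6 higher and 2 lower of 43, with Hsp90aa1 at 986 and 905 with LA and 2465 and 1882 with CLA (1.19 ± 0.16, adjusted p = 0.00132). The array levels of the translocation, Golgi, TRiC and heat shock classes were higher with CLA under quantile normalisation and lower under median scaling.

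The TGF-beta and BMP family guides the fate of mesenchymal cells. Its class had 5 higher (10.4%) and 4 lower (8.33%) of 48, close to the 9.38% and 9.19% of all genes. Median scaling gave 4 higher and 1 lower. Several receptors were among the higher genes. Bmpr2, a type II BMP receptor, stood at 900.2 and 789 with LA and 2244 and 1925 with CLA (log2 difference 1.30 ± 0.13, adjusted p = 6.38e-04), and Acvr2a, an activin receptor, at 291 and 253 with LA and 944 and 728 with CLA (1.60 ± 0.17, adjusted p = 6.60e-04). Tgfbr1 stood at 439.8 and 431 with LA and 915 and 832 with CLA (1.0 ± 0.14, adjusted p = 0.00136), and Bmpr1a was higher by 0.77 ± 0.09. For these 4 receptors both CLA arrays lay above both LA arrays, as for every gene called higher. Tgfbr2, the partner of Tgfbr1, was lower by 0.34 ± 0.09 (adjusted p = 0.0229), a call not made under median scaling.

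Insulin and IGF signalling genes had 7 higher and 5 lower of 46 (4 and 0 under median scaling). Igf1, a secreted growth factor, stood at 119 and 99.1 with LA and 466 and 277 with CLA (log2 difference 1.71 ± 0.24, adjusted p = 0.00134), Rictor, a subunit of the kinase complex mTORC2, was 2.06-fold and Irs1 1.31-fold higher. Growth factor receptors and ligands had 5 and 5 of 50, with Pdgfa, a platelet-derived growth factor, at 492 and 631 with LA and 354 and 347 with CLA (−0.67 ± 0.14, adjusted p = 0.0101). WNT signalling had 3 and 2 of 42, with Apc, part of the complex that degrades beta-catenin, 2.17-fold higher. Notch and Hedgehog genes had 2 and 3 of 28. YAP and TEAD genes had 7 higher and 2 lower of 33 (4 and 0 under median scaling), among them the transcription factor Tead1 at 598 and 551 with LA and 823 and 863 with CLA (0.55 ± 0.10, adjusted p = 0.00397), whose 1 other probe set lay at −0.50, and the kinase Lats1, which restrains YAP, higher by 0.55 ± 0.12.

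Matrix and cytoskeleton classes were divided. Non-collagen matrix proteins had 6 higher and 8 lower of 61, and matrix proteases and inhibitors 7 and 3 of 58. Vcan, the proteoglycan versican, stood at 1006 and 1030.4 with LA and 2654 and 2140.4 with CLA (log2 difference 1.23 ± 0.14, adjusted p = 7.08e-04), and Has2, which makes hyaluronan, at 220.4 and 196 with LA and 447 and 346 with CLA (0.92 ± 0.14, adjusted p = 0.00236). Of the 4 other probe sets of Vcan 1 lay at −0.83. Postn, which encodes periostin, stood at 2082 and 1835 with LA and 5132 and 3385 with CLA (1.09 ± 0.22, adjusted p = 0.00730), with the CLA arrays far apart, and Fbln7 was lower as given above. Collagens and their modifying enzymes had 4 higher and 3 lower of 47, with Col11a1 and Col8a1 higher by 0.84 ± 0.16 and 0.72 ± 0.14. Integrins and focal adhesion genes had 7 and 3 of 49, with Itgb1 higher by 0.82 ± 0.15. Actin assembly genes had 7 and 6 of 55, smooth muscle contractile genes and SRF targets 3 and 3 of 48, and tubulins and motor genes 4 and 8 of 56. Kif5b, the heavy chain of kinesin-1, stood at 314 and 289 with LA and 990.2 and 791 with CLA (1.55 ± 0.23, adjusted p = 0.00163), with 5 other probe sets higher as well.

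Calls among replication genes were mostly in the lower direction. Before a cell can copy its DNA, Cdt1 loads the MCM helicase on origins, and E2F factors switch these genes on in late G1. Of 53 measured replication and licensing genes 11 were lower and 2 higher, with a median of −0.32 against −0.15 over all genes (5 lower, 2 higher and −0.26 against −0.17 under median scaling). The 11 lower calls became 3, 4 and 5 without LA replicate 2, CLA replicate 1 or LA replicate 1, 7 without LA replicate 1 of 8 h, and 0 with the covariate. Promoters of 3 of the lower genes are printed because they hold matches to the E2F site, in RefSeq windows of build GRCm38.p6 that run 5′ to 3′ on the gene's strand from 250 bases before to 50 after its start. Cdt1 (plus strand, chr8:122567765-122568064) has a match beginning at base 33 after the start, Mcm5 (plus strand, chr8:75109259-75109558) has 2 overlapping matches that begin 153 and 149 bases before it, and Mcm3 (minus strand, chr1:20820263-20820562) has 2 that begin at bases 20 and 39 after it. Capitals mark the matches.
Cdt1: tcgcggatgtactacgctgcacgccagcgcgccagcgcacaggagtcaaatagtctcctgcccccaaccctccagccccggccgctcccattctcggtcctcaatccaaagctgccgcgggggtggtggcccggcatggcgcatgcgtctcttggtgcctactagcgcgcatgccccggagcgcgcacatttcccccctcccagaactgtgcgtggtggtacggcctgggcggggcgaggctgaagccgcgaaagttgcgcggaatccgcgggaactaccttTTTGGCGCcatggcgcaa
Mcm5: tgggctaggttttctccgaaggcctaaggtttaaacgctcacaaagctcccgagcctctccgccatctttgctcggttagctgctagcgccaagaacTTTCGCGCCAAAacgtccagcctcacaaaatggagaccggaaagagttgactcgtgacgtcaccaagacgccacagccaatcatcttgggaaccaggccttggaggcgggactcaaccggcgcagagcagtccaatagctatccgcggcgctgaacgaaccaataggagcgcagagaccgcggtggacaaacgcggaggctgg
Mcm3: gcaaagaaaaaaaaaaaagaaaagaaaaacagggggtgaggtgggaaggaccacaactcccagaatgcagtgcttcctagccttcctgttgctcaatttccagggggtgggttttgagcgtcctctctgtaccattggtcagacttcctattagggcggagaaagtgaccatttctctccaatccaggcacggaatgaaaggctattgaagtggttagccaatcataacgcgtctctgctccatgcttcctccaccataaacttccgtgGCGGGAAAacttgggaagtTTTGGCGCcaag
The letters searched on both strands were TTTGGCGC, TTTCGCGC, TTTCCCGC and TTTGCCGC. A match was found in 2.26% of 32851 promoter windows, in 4.58% of the 10090 measured genes with a window, in 17 of 44 replication genes and in 7 of the 11 that were lower, Cdt1, Mcm3, Mcm5 and Mcm7 among them. The class holds textbook E2F targets, so this share describes the list and not its change, and over all genes called lower 6.39% of 954 had a match, against 5.71% of 945 called higher.

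Cdt1 stood at 447 and 515 with LA and 275 and 307 with CLA (log2 difference −0.72 ± 0.12, adjusted p = 0.00318), Mcm5 at 282 and 291 with LA and 152 and 177 with CLA (−0.80 ± 0.13, adjusted p = 0.00331) and Mcm3 at 209 and 200.2 with LA and 123 and 133 with CLA (−0.67 ± 0.14, adjusted p = 0.00811). Both CLA arrays lay below both LA arrays in each, as for every gene called lower, and 1 of the 4 other probe sets of Mcm3 lay at 0.45. Mcm10, which is dim, was lower by 1.36 ± 0.31 and Mcm7 by 0.41 ± 0.08. Pola1, the catalytic subunit of DNA polymerase alpha and 1 of the 2 higher members, stood at 18.8 and 26.6 with LA and 59.1 and 54.0 with CLA (1.27 ± 0.25, adjusted p = 0.00749). Cyclins, CDKs and G1 regulators had 2 higher and 4 lower of 35. Ccnd1, which encodes cyclin D1, stood at 539 and 557 with LA and 379 and 406 with CLA (−0.48 ± 0.09, adjusted p = 0.00562), Cdkn1a, the CDK inhibitor p21, was lower by 0.47 ± 0.11, and Rb1, the repressor of E2F factors, was higher by 0.81 ± 0.13. The 1 other probe set of Rb1 lay at −0.73 and that of Cdkn1a at 0.12. Mitotic genes had 4 higher and 6 lower of 65 (5 and 3 under median scaling), with Aurka and Cdc20 lower by 0.98 ± 0.24 and 0.68 ± 0.14 and the condensin subunit Smc2 higher by 1.91 ± 0.35. The array level of the mitotic class was higher with CLA under both scalings, at −1.85 to −1.69 with LA and −1.68 to −1.67 with CLA after quantile normalisation. DNA repair genes had 6 higher and 3 lower of 55 (7 and 0 under median scaling), with Rad50, Lig4 and Atm 2.0-fold, 2.39-fold and 1.83-fold higher. Of 30 p53 targets 4 were higher and 2 lower, with Mdm2 at 4456 and 4337 with LA and 6671 and 6549 with CLA (0.59 ± 0.07, adjusted p = 9.74e-04) and Trp53inp1 2.40-fold higher, and of 38 cell death regulators 4 were higher and 7 lower.

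Calls among stress response genes under ATF4 and CHOP were in the lower direction, with 1 exception. ATF4 is translated when the initiation factor eIF2 is phosphorylated and switches on genes of amino acid supply. Of 40 measured members 9 were lower and 1 higher, with a median of −0.23 (6, 0 and −0.32 under median scaling). The 9 lower calls became 0, 2 and 4 without LA replicate 2, CLA replicate 1 or LA replicate 1, and 0 with the covariate. Phgdh, the first enzyme of serine synthesis, stood at 1489 and 1615 with LA and 1124 and 1194 with CLA (log2 difference −0.42 ± 0.08, adjusted p = 0.00597), Shmt2, a mitochondrial enzyme of one-carbon metabolism, at 825 and 793 with LA and 611 and 532 with CLA (−0.50 ± 0.11, adjusted p = 0.0103) and Pck2, the mitochondrial PEP carboxykinase, at 827 and 785 with LA and 591 and 611 with CLA (−0.42 ± 0.10, adjusted p = 0.0149). All CLA values of these 3 genes lay below all LA values, as for every gene called lower. Bcat1 was lower by 0.51 ± 0.12, and Nupr1 was the 1 member called higher, by 0.43 ± 0.09. The regulators themselves did not pass the test: Atf4 stood at 2029 and 1844 with LA and 2273 and 1895 with CLA (adjusted p = 0.461) and Ddit3, which encodes CHOP, at 339.98 and 322 with LA and 367 and 322 with CLA (adjusted p = 0.754), and in both the fatty acids overlapped. The promoter of Pck2 (plus strand, chr14:55540016-55540315, same source and window) holds a match to the CEBP-ATF response element, capitalised below, that begins 103 bases before the start.
Pck2: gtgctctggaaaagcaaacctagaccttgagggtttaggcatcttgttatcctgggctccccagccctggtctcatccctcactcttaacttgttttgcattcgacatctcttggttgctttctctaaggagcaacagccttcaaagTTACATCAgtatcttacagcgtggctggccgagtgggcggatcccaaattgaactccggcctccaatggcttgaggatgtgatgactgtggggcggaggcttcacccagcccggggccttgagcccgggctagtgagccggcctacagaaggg
The element was searched as TGATGNAA on both strands. It was found in 3.97% of the promoter windows, in 2.82% of the measured genes, in 12 of 33 class members with a window and in 4 of 8 that were lower, Pck2 among them, in a class made up of known ATF4 targets. Among all genes called lower 2.52% had a match.

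Amino acid and one-carbon classes held calls in both directions. Nucleotide, serine and one-carbon synthesis had 4 higher and 9 lower of 34 (1 and 3 under median scaling), with Odc1, the first enzyme of polyamine synthesis, at 2542 and 2522 with LA and 1987 and 2028 with CLA (log2 difference −0.33 ± 0.07, adjusted p = 0.0109). Amino acid transporters had 2 higher and 6 lower of 31 (1 and 1), with Slc3a2, a shared subunit of several transporters, lower by 0.29 ± 0.07, Slc38a10 lower by 0.41 ± 0.08 and Slc38a2 higher by 0.38 ± 0.09. Cytosolic aminoacyl-tRNA synthetases had 1 higher and 3 lower of 18 (0 and 2), with Mars1 and Aars lower by 0.48 ± 0.11 and 0.35 ± 0.08.

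Within growth signalling, the ERK feedback and immediate early classes held mostly lower calls. Signalling genes as a whole had 32 higher and 33 lower of 329, shares close to those over all genes. The ERK feedback class is named for genes that the kinase ERK induces and that restrain it in turn, which need not hold for each member. Its genes were lower in 7 of 33 and higher in 1, with a median of −0.28 (2, 1 and −0.31 under median scaling). Immediate early and AP-1 genes were lower in 5 of 35 with none higher (3 and 0), with a median of −0.27. Without LA replicate 1, LA replicate 2 or CLA replicate 1 the lower calls were 1, 2 and 2 in the ERK class and 0, 1 and 1 in the immediate early class, without either CLA array of 8 h they were 10 and 11, without CLA replicate 2 of 12 h the immediate early class had 8, and with the covariate both classes had 0. Phlda1 stood at 251 and 269 with LA and 148 and 129 with CLA (log2 difference −0.90 ± 0.13, adjusted p = 0.00153) and Fosl1, an AP-1 subunit, at 73.3 and 58.4 with LA and 24.2 and 27.2 with CLA (−1.29 ± 0.25, adjusted p = 0.00629), with both CLA arrays well below both LA arrays in each. In the authors' deposited table Phlda1 was called lower as well, and Fosl1 was not called (adjusted p = 0.479). Nr4a1, an orphan nuclear receptor of the immediate early class, stood at 212 and 209 with LA and 100.2 and 146 with CLA (−0.79 ± 0.17, adjusted p = 0.0120). Errfi1, Spry2 and Srf were lower by 0.49 ± 0.11, 0.53 ± 0.14 and 0.56 ± 0.14, as was the kinase Map2k2 by 0.61 ± 0.16. Braf, a kinase upstream of ERK, was 2.43-fold higher (1.28 ± 0.22, adjusted p = 0.00397), with all 7 other probe sets higher too. The median of these 2 classes at 8 h was −0.23 and −0.21, against −0.04 over all genes, with no gene called at that time.

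In the NF-kB pathway 8 of 34 genes were lower and 1 higher (5 and 1 under median scaling). The 8 lower calls became 4 without LA replicate 1, LA replicate 2 or CLA replicate 1, and 0 with the covariate. Nfkbie, an inhibitor that holds NF-kB in the cytoplasm, stood at 792 and 872 with LA and 472 and 562 with CLA (log2 difference −0.69 ± 0.12, adjusted p = 0.00385), and Irak1, a kinase of interleukin 1 signalling, at 569.9 and 449 with LA and 293 and 272 with CLA (−0.84 ± 0.17, adjusted p = 0.00803). Socs3 stood at 976 and 964 with LA and 652 and 682 with CLA (−0.54 ± 0.10, adjusted p = 0.00430), and the NF-kB subunit Relb was lower by 0.61 ± 0.14, while Tab3 was the 1 gene called higher, by 0.76 ± 0.15. Socs3 is also counted among 61 chemokines, cytokines and receptors, which had 6 higher and 3 lower (1 and 2). There Il6 stood at 924 and 908 with LA and 1304 and 1309.95 with CLA (0.51 ± 0.14, adjusted p = 0.0329) and Ccl2 at 1988 and 1661 with LA and 2742 and 2170.2 with CLA (0.42 ± 0.12, adjusted p = 0.0332), both called under quantile normalisation and neither under median scaling. Interferon-stimulated genes had 3 higher and 9 lower of 56 (2 and 2), with Ifi35 and Tap1 lower by 0.60 ± 0.09 and 0.86 ± 0.24 and Eif2ak2, the kinase PKR, higher by 1.22 ± 0.22. Complement and coagulation genes had 3 and 5 of 25 (1 and 1). Of 26 prostaglandin genes 1 was higher and 3 lower (0 and 1), with the prostacyclin synthase Ptgis lower by 0.47 ± 0.11, and Ptgs2, the inducible cyclooxygenase, at 104 and 106 with LA and 131 and 156 with CLA (adjusted p = 0.0815).

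Redox and mitochondrial genes had more lower than higher calls, at small differences. NRF2, glutathione and thioredoxin genes had 2 higher and 9 lower of 44 (0 and 3 under median scaling). Sod2, the mitochondrial superoxide dismutase, stood at 2285 and 2390.04 with LA and 1704 and 1829 with CLA (log2 difference −0.40 ± 0.06, adjusted p = 0.00251), and Tkt and Pgd, enzymes of the pentose phosphate pathway, were lower by 0.42 ± 0.08 and 0.43 ± 0.09. Keap1, the NRF2 inhibitor, was lower by 0.57 ± 0.14, with its 1 other probe set at 0.43. Respiratory chain and ATP synthase genes had 2 higher and 14 lower of 87 (0 and 5), with a median of −0.08, above that of all genes, and −0.29 under median scaling, below it. Ndufb7 stood at 2440.4 and 2652 with LA and 2047 and 1779.8 with CLA (−0.41 ± 0.08, adjusted p = 0.00803), and the other complex I subunits Ndufs7 and Ndufa13 were lower by 0.40 ± 0.09 and 0.22 ± 0.05. The TCA cycle class had 4 higher and 7 lower of 35, with Got2 lower by 0.43 ± 0.08 (its 2 other probe sets lay at 0.13 and 0.18) and Dld higher by 1.02 ± 0.20, and mitochondrial import and dynamics had 4 and 7 of 43, with the fission GTPase Dnm1l at 582 and 535 with LA and 1484 and 1224 with CLA (1.27 ± 0.16, adjusted p = 9.43e-04). Iron and heme genes had 2 higher and 6 lower of 32. The glycolysis and glucose uptake class had a median of −0.27, and −0.33 under median scaling, both below those of all genes. Both CLA arrays lay below both LA arrays for 22 members and above them for 1, against 42.3% and 20.3% of all genes. Of the 27 genes 1 was called higher and 2 lower under both scalings. These were Ugp2 at 1203 and 1105 with LA and 2186 and 1881 with CLA (0.81 ± 0.11, adjusted p = 0.00107), the glucose transporter Slc2a1, lower by 0.35 ± 0.07, and the hexokinase Hk2 at 596 and 689 with LA and 366 and 426 with CLA (−0.70 ± 0.15, adjusted p = 0.0118). Of 31 HIF targets 5 were higher and 2 lower, among them Hif1a itself, higher by 0.54 ± 0.08, and of 28 AMPK and energy sensing genes 2 were higher and 3 lower.

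Of 209 lipid genes 21 were higher and 17 lower, shares close to those over all genes. In cholesterol synthesis and LDL uptake 4 of 29 genes were higher and none lower, with a median of 0.16, and median scaling gave 2 higher and a median of −0.03. Hmgcs1, which makes HMG-CoA for sterol synthesis, stood at 1669 and 1749.5 with LA and 2434 and 2749 with CLA (log2 difference 0.60 ± 0.08, adjusted p = 0.00107) and Idi1, the isopentenyl diphosphate isomerase, at 358 and 364 with LA and 925 and 718 with CLA (1.17 ± 0.16, adjusted p = 0.00134). Msmo1 was higher by 0.31 ± 0.07 and Abca1, a cholesterol exporter, by 0.53 ± 0.14, and its 2 other probe sets lay below 0. Idi1 and Abca1 were the 2 called under median scaling. Fatty acid and triglyceride synthesis had 4 higher and 3 lower of 38, the higher ones being the acyl-CoA synthetases Acsl4 at 507 and 431 with LA and 1029 and 1053 with CLA (1.15 ± 0.14, adjusted p = 9.24e-04) and Acsl3 (1.53-fold), the elongase Elovl6 (1.76-fold) and the desaturase Scd2 (1.31-fold). Scd1 and Fasn were not called, at 709.6 and 607 with LA and 792 and 766 with CLA and at 1397 and 1406 with LA and 1199 and 1249 with CLA. Fatty acid oxidation had 2 higher and 2 lower of 35, with Slc25a20, the carnitine carrier of the inner membrane, at 553 and 595 with LA and 318 and 401 with CLA (−0.68 ± 0.14, adjusted p = 0.00985) and Acaa1a lower by 0.61 ± 0.13, while Cpt1a stood at 1321 and 1197 with LA and 1355 and 1467 with CLA (adjusted p = 0.153). Lipid uptake, droplet and lipolysis genes had 3 and 5 of 29, peroxisomal genes 3 and 3 of 30 and phospholipid and sphingolipid synthesis 5 and 4 of 48. Lpl, the lipoprotein lipase, was higher by 0.29 ± 0.05 after quantile normalisation and lay at −0.04 after median scaling. Angptl4, Plin2 and Pdk4 were not called at 12 h, with log2 differences of 0.30 ± 0.12, 0.21 ± 0.09 and 0.28 ± 0.14.

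Regulators of adipocyte fate held calls in both directions. Nuclear receptors and coregulators had 5 higher and 7 lower of 36 (4 and 7 under median scaling). Ppara stood at 47.5 and 48.7 with LA and 13.1 and 16.5 with CLA (log2 difference −1.59 ± 0.29, adjusted p = 0.00510), and Pparg, the master regulator of adipogenesis, at 35.8 and 51.6 with LA and 14.5 and 13.3 with CLA (−1.51 ± 0.34, adjusted p = 0.0126). Vdr and Esrrb were lower by 0.71 ± 0.14 and 1.04 ± 0.19, and Nr3c1, the glucocorticoid receptor, was higher by 0.86 ± 0.17. These receptors kept their direction and call under median scaling. In the authors' deposited table the log10 ratio was −0.00801 for Ppara (adjusted p = 0.977), −0.137 for Pparg (adjusted p = 0.722) and −0.101 for Esrrb (adjusted p = 0.912), none of them called there. Among 36 adipogenic transcription factors 4 were higher and 6 lower (2 and 2), with Cebpd, an early adipogenic factor, at 992 and 1106 with LA and 601 and 717 with CLA (−0.67 ± 0.15, adjusted p = 0.0114). Cebpb and Cebpa were not called, at 2406 and 2446 with LA and 1899.8 and 2306 with CLA and at 31.3 and 33 with LA and 8.92 and 16.2 with CLA. Preadipocyte identity genes had 2 higher and 4 lower of 21 (0 and 1), with Prrx1 higher by 0.43 ± 0.07 and Pdgfrb and Twist2 lower by 0.29 ± 0.06 and 0.42 ± 0.12. Adipokines had 2 and 1 of 14 (1 and 0), and the adipocyte fatty acid binding protein Fabp4 stood at 188 and 174 with LA and 189 and 219 with CLA (adjusted p = 0.349).

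The same contrast at the earlier times gave few calls. Limma called 0 genes at 8 h, where 495 of 12498 had an unadjusted p under 0.05, and 37 at 4 h (0.296%), where LA had 1 array. The 2 CLA arrays of 8 h had deposited medians of 20.1 and 12.8 and lay at −15.1 and 8.41 on the leading component, though they correlated at r = 0.973. The 2 LA arrays of 8 h had medians of 13.9 and 14.3 and lay at 5.62 and 4.24. The lack of calls at 8 h therefore does not show a lack of difference. A test of the difference itself called 144 genes (1.15%) whose CLA minus LA difference changed from 8 to 12 h, 139 upward (1.11%) and 5 downward (0.04%), and 142 of them were among the genes called at 12 h. From 4 to 12 h it called 153 (1.22%), 124 upward (0.992%) and 29 downward (0.232%). Ptbp3 moved from 0.20 at 8 h to 1.28 at 12 h (change 1.08 ± 0.17, adjusted p = 0.0324), Bmpr2 from 0.07 to 1.30 (1.23 ± 0.18, adjusted p = 0.0324) and Cul4b from 0.09 to 1.39 (1.31 ± 0.21, adjusted p = 0.0324). Tsc22d4 moved the other way, from −0.15 to −0.97 (−0.82 ± 0.14, adjusted p = 0.0341), as did Cdkn1a, from 0.29 to −0.47 (−0.76 ± 0.16, adjusted p = 0.0468). The replication, ATF4, ERK, NF-kB and immediate early classes held no called change from 8 to 12 h. The count of 144 was 0 without either CLA array of 4 h, either LA array of 8 h or LA replicate 1 of 12 h, 1 to 3 without CLA replicate 2 of 8 h, LA replicate 2 of 12 h or CLA replicate 1 of 12 h, and 913 without CLA replicate 1 of 8 h. The count of 153 ranged from 6 without LA replicate 1 of 12 h to 671 without CLA replicate 2 of 8 h, and was 0 with the log2 array median as a covariate, where the count of 144 was 13.

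Other probe sets and the authors' table gave a second look at the same arrays. Where a gene had several probe sets, 88.1% of the 1867 others had the same sign for genes called higher and 78.0% of 1135 for genes called lower, against 63.3% for genes not called. Of the 143 called genes open to naming that had other probe sets, 26 had at least 1 of the opposite sign. In 11 of them every other probe set was opposite (Abca1, Cdkn1a, Chd9, Edem3, Errfi1, Got2, Keap1, Pdia3, Rb1, Rps6 and Tead1), and with averaged probe sets these 11 missed limma's threshold, with adjusted p from 0.160 for Errfi1 to 0.954 for Tead1. Of the 26, Bcat1, Bclaf1, Mbnl3, Mcm3, Mdm2, Mrpl15, Mrpl44, Psme4, Sf3b2, Slc38a10, Sod2 and Vcan missed it too. Their adjusted p ran from 0.0645 for Psme4 to 0.527 for Mrpl15, and Aar2, Hmgcs1 and Itgb1 passed. The authors' deposited table of 12 h ratios, after Benjamini-Hochberg adjustment of its p-values, had 1654 genes higher and 958 lower. It shared 1720 calls of the same direction, which are 74.1% of those made here and 65.8% of its own, and 0 genes called in both had opposite signs. Of the 185 called genes open to naming, 166 were called the same way there. Those not called there were Acaa1a, Aurka, Cdkn1a, Elovl6, Esrrb, Fosl1, Il1f10, Mcm10, Plscr3, Ppara, Pparg, Shmt1, Slc25a20, Srf, Tap1, Tgfbr2, Traf4, Tsc22d4 and Wdr45. Their adjusted p in that table ran from 0.0637 for Tsc22d4 to 0.977 for Ppara.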

How the data were processed

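RNA of 3T3-L1 cells was measured on 1-colour Affymetrix arrays, per the labels' protocols. The deposited intensities are linear and background-subtracted; array medians differ, and their software is not named in these sources. The authors' deposited 12 h table gives each probe set a ratio, with the log10 of it, and a p-value, and per the file headers comes from Rosetta Resolver; its direction was taken from its correlation with the differences computed here (r = 0.814 over genes).

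Intensities of all 11 arrays were quantile normalised, set to 0 where negative and converted to log2(value + 1.84), the offset being the 25th percentile, so that fold changes of dim genes are understated on this log2 scale, which the authors did not deposit. Of 45101 probe sets, 64 controls were left out. Of the other 45037, 34945 had 1 gene symbol, 932 several and 9160 none, and 34741 were matched by Entrez ID to RefSeq GRCm38.p6. Those whose mean passed 7.81 (the 40th percentile) entered the test, and the brightest represented each gene. Limma 3.58.1 in R 4.3.3 fitted 6 group means with an intensity trend and Benjamini-Hochberg adjustment at 0.05, with 5 residual degrees of freedom. Errors are standard errors of the log2 difference, and n is 2 arrays per group. Background was 8.89, the 95th percentile of 27 unspiked controls. The number of arrays limits the precision: an exact permutation test of 2 against 2 cannot go below p = 0.333. The procedure was tested on simulated data. Figures used Python 3.11.15 and matplotlib 3.10.9.

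Genes named are the 12 largest called increases and decreases with groups apart under both scalings and at least median brightness (153), up to 6 members per class by smallest p, 5 per difference between times and 20 chosen whatever their values. The comparison, classes and genes were chosen with earlier results of these data known. Same-numbered deviations correlated at 0.014 at 8 h and 0.077 at 12 h over 2 pairs each, so the numbers were not taken to pair arrays. A second LA array of 4 h, which the design text implies, was not analysed here. Alternatives covered scaling, offset, filter, probe sets, arrays fitted, replicate blocks, an array-median covariate and leaving out each array.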

Additional observations from a re-analysis of the deposited data

Results flagged for a closer look

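For the following named genes the CLA minus LA difference itself differed between times in the limma test of the change, over all genes, with n = 2 arrays per group at 8 and 12 h and 1 LA array at 4 h. From 8 to 12 h the log2 difference increased by these amounts: Acsl4 1.07, Acvr2a 1.33, Aff4 0.89, Bmpr1a 0.65, Bmpr2 1.23, Chd9 1.44, Cnot6 0.95, Cul3 0.92, Cul4b 1.31, Ddx19b 2.27, Dnm1l 1.07, Edem3 1.08, Eif5 0.80, Has2 1.11, Hif1a 0.55, Hmgcs1 0.68, Hook3 2.14, Ipo7 1.35, Kpna3 1.01, Lamp2 0.47, Magt1 0.98, Mbnl3 1.80, Ncl 0.97, Oip5os1 1.33, Pdia3 0.45, Ptbp3 1.08, Rapgef6 2.05, Rbm27 0.96, Smarca5 0.89, Suz12 1.37, Tgfbr1 0.96, Usp9x 1.67, Vcan 1.13, Wwp1 1.37 and Zfp449 1.11. It decreased for Cdkn1a −0.76, Ppara −3.74 and Tsc22d4 −0.82. From 4 to 12 h it increased by these amounts: Acvr2a 1.77, Aff4 0.89, Bmpr2 1.26, Chd9 1.69, Cnot6 1.15, Cul3 0.89, Cul4b 1.26, Edem3 1.09, Hook3 2.31, Igf1 1.78, Ipo7 1.51, Kdm7a 2.36, Kpna3 0.90, Lpl 0.37, Magt1 1.18, Ncl 0.96, Oip5os1 1.41, Pdia3 0.68, Ptbp3 1.16, Rapgef6 2.47, Smarca5 1.03, Smg1 1.52, Suz12 1.42, Usp9x 2.04, Vcan 1.24, Wwp1 1.56, Zfp449 1.27 and Zfp871 1.26. It decreased for Il1f10 −6.46, Ptpdc1 −4.90, Rcor2 −5.67, Shmt1 −6.22, Tsc22d4 −0.83 and Zfp691 −5.06. The change from 4 h rests on the single LA array of 4 h, on which Il1f10, Ptpdc1, Rcor2, Shmt1 and Zfp691 stood at 0, and at 12 h itself Ptpdc1 (0.0042, adjusted p = 0.992), Rcor2 (−1.67, adjusted p = 0.0775) and Zfp691 (−0.56, adjusted p = 0.436) were not called. The difference of Ppara, a dim gene, turned from above 0 at 8 h, where no gene was called, to −1.59 at 12 h. The changes from 8 h and from 4 h share the 12 h arrays and are not independent. The counts of such genes varied widely when 1 array was left out, as given with the other settings.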

How the results depend on the processing

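The count of 2321 genes at 12 h became 1305 under median scaling, 1304 with no filter on low values, 1000 with no intensity trend, 1417 with the 12 h arrays alone in the fit, 1407 with them alone in normalisation and fit, and 157 with the array-median covariate. It stayed within 1.5 times of 2321 as deposited (1924), with cyclic loess (2602), an offset of 16 (2410), a filter at the 60th percentile (2655), averaged probe sets (1739), a replicate block shared over times (2428) or within each time (2463), and in the authors' deposited table (2612). Leaving out 1 array gave 705 (LA replicate 2 of 12 h) to 3245 (CLA replicate 1 of 8 h). The 144 changes from 8 to 12 h became 273 under median scaling, 38 as deposited, 246 with cyclic loess, 13 with no filter, 217 at the 60th percentile, 1 with averaged probe sets, 1 with no trend, 305 when a replicate block was set per time and 13 with the covariate, and 0 to 913 without 1 array. The 153 changes from 4 to 12 h became 1468 as deposited, 256 with cyclic loess, 71 with no filter, 252 at the 60th percentile, 24 with averaged probe sets, 7 with no trend, 87 for the shared replicate block, 354 for the block per time and 0 with the covariate, and 6 to 671 without 1 array: 6, 28 and 48 without LA replicate 1, LA replicate 2 or CLA replicate 1 of 12 h, 21 and 17 without CLA replicate 1 or 2 of 4 h, 59 and 56 without LA replicate 1 or 2 of 8 h, and 664, 671 and 481 without CLA replicate 1 or 2 of 8 h or CLA replicate 2 of 12 h. The cause of these shifts was not tested. Over the 201 genes that could be named and all alternatives, 4347 values kept direction and call, 631 lost the call, 19 gained it and 22 turned. Turned log2 differences were, under median scaling, Atf4 −0.11, Cpt1a −0.0051, Hspa5 −0.29, Lpl −0.037 and Plin2 −0.0019; as deposited, Cebpb 0.033, Fasn 0.086 and Zfp691 0.0038; with averaged probe sets, Cpt1a −0.023, Ddit3 −0.17 and Ptpdc1 −0.12; with the covariate, Fabp4 −0.040 and Fasn 0.00065; with cyclic loess, Hspa5 −0.0063; with the 12 h arrays alone in normalisation and fit, Mbnl3 −0.45; in the authors' deposited table, Ptpdc1 −0.0096. Leaving out 1 array gave Atf4 −0.030 to 0.23, Ddit3 −0.040 to 0.15, Ptpdc1 −0.27 to 0.27 and Zfp691 −1.37 to 0.26, each end without CLA replicate 1 or 2 of 12 h, and Hspa5 −0.017 to 0.18 without LA replicate 1 or 2. Ptpdc1 was also −0.17 without LA replicate 2. The differences between times could not be fitted with the 12 h arrays alone or taken from the authors' table, nor that from 4 h without its 1 LA array. Dim genes near the background of 8.89 are the least precise.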
